A study of Homo sapiens with 9 samples.

Results

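Antisense lncRNAs are long non-coding RNAs transcribed from the strand opposite to another gene, and many carry the symbol of that gene followed by AS and a number. The 280 genes described here were annotated as lncRNA in the deposited tables, carried such an AS name, had names that did not start with HOX, were not OIP5-AS1, and had a deposited mean above 100 in both tables. They were 280 of the 1485 AS-named lncRNAs and of the 51105 genes that both tables listed. The members were thus chosen by measured values, the deposited means, which include the RIP libraries, and by name. The limit on the means was passed in the PABPN table by 340 AS-named lncRNAs and in the PABPC table by 288, so that 60 were left out by the PABPC table alone and 8 by the PABPN table alone. SNED1-AS1 lay just inside the limit, with a mean of 100.1 in the PABPC table, next to IDI2-AS1 at 100.7, and HAND2-AS1 at 99.4 and ZNF436-AS1 at 98.8 lay just outside it. In the PABPN table DNAJC9-AS1 (102.7) and URB1-AS1 (108.0) were just inside, and ATXN7L3-AS1 (98.1) and FOXD3-AS1 (87.6) were just outside. The reference annotation (GENCODE release 44 on hg38) placed 278 of the 280 on the opposite strand of the gene in their name.

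HEK293T, a transformed cell line of embryonic kidney origin, was crosslinked with 0.1% formaldehyde for 10 min. The study collected 3 biological replicates of this line, with no genotype or drug treatment to compare. Each lysate was divided, 1 portion for immunoprecipitation (RIP) of the nuclear poly(A) binding protein (PABPN) and the other for the cytoplasmic poly(A) binding protein (PABPC), and 3 input, 3 PABPN RIP and 3 PABPC RIP libraries of ribosome-depleted total RNA were sequenced. Crosslinking, the cell line and the lysate were thus shared by all 3 groups, and no libraries from a control antibody were analysed here. NEFM and NEFL, neurofilament genes typical of this line, had deposited means of 56817 and 13854 in the PABPN table, while PTPRC (leukocytes) and HBB (erythroid cells) had 0.804 and 0. ALB (hepatocytes) had 8.64, and COL1A1 (fibroblasts) had 455, so that this marker of another cell type was present.

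Poly(A) tails are added to most RNA polymerase II transcripts at their 3′ ends, and poly(A) binding proteins coat these tails. PABPN acts mainly in the nucleus, where it stimulates tail synthesis and takes part in the decay of some nuclear non-coding RNAs, whereas PABPC coats the tails of RNAs in the cytoplasm and links them to translation and deadenylation. Antisense lncRNAs range from short, rarely spliced transcripts that leave a shared promoter to multi-exon transcripts that cross a whole neighbouring gene, and many are known as mainly nuclear RNAs. The comparisons asked which antisense lncRNAs each protein enriched over total RNA, and which of the proteins held more of each.

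The 3′ ends below are those of 4 of the 6 antisense lncRNAs with the strongest preference for PABPC over PABPN (AGAP2-AS1 to ZBTB11-AS1) and of 3 of the 6 with the strongest preference for PABPN. They are shown because the tail that both proteins bind is attached at the 3′ end. Each is the last 30 bases of the principal transcript in GENCODE release 44 (hg38), 5′ to 3′. A single copy of the poly(A) signal letters AATAAA or ATTAAA is in capitals where they occur. In MAP3K4-AS1 a further AATAAA overlaps the end of the capitals and is left in lower case.
AGAP2-AS1, chr12:57728327-57728356, plus strand: aaatatttcttaaactaccaaaggatttta
PITPNA-AS1, chr17:1518072-1518101, plus strand: taAATAAAcaaggtaatctaatcaattcta
MAP3K4-AS1, chr6:160990318-160990347, minus strand: ttaaatAATAAAataaatctcttctttaaa
ZBTB11-AS1, chr3:101679188-101679217, plus strand: taattccctaAATAAAactattacaaaaaa
ADAMTSL4-AS1, chr1:150560202-150560231, minus strand: ggcacagaaaaccgtgaaggtgccccggac
F11-AS1, chr4:186286094-186286123, minus strand: ttatctttAATAAAttatctttagactaaa
C1QTNF7-AS1, chr4:15004942-15004971, minus strand: accgccggccaaataagAATAAAcaaactc
The AATAAA letters were found on both sides, in PITPNA-AS1, MAP3K4-AS1 and ZBTB11-AS1 among those preferring PABPC and in F11-AS1 and C1QTNF7-AS1 among those preferring PABPN. In the last 50 bases, 4 of the 6 with the strongest preference for PABPC and 2 of the 6 with the strongest preference for PABPN held them. An annotated end need not be the end used in these cells, so the absence of these letters says only that they are not in this window.

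The deposited tables give no values per library, but each mean over 6 libraries is printed with about 15 digits. A gene with a single read in 1 library takes a mean that depends on that library alone, and the 6 values most often listed in each table gave the 9 library size factors. The whole reads behind the 2 means of a gene were then solved for. Of the 3545 genes with low means used for a first pass, 3508 (99.0%) had exactly 1 solution, and after the last 6 digits were replaced at random 2 genes had any. Reads were recovered for 244 of the 280 antisense lncRNAs, and not for the other 36, whose means in the PABPN table were 1446 to 14496. Of the 244, 201 had means of at most 900 in both tables. Libraries that contributed to both tables were the input libraries, but their replicate numbers could not be told, and they are called a, b and c within each group.

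Size factors differed 1.69-fold at most, and the 244 lncRNAs held between 52337 reads (PABPC RIP c) and 181700 reads (PABPN RIP c) per library. These reads are part of each library, whose full depth was not analysed here. A single library in each group stood apart from the other two on the first principal component of deviations from the group means (63.6% of their variance): input a, PABPN RIP c and PABPC RIP a. In each of these the antisense lncRNAs together had more reads than in the other libraries of the group. Their summed normalised reads (reads divided by the size factor) were 134313 in input a against 117519 and 118688, 176641 in PABPN RIP c against 148233 and 148795, and 85982 in PABPC RIP a against 77837 and 78142. The part of this shift in the results was not tested, nor was it tested whether the 3 come from 1 lysate, and counts without the 3 libraries are given beside the main ones. All differences are relative to the other RNAs of a library, so the total RNA recovered by each antibody is not part of them.

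PABPC RIP depleted 137 of 244 antisense lncRNAs and enriched 51 over input, while PABPN RIP enriched 67 and depleted 4. The median log2 difference was -0.91 for PABPC RIP over input (all genes tested 0.13) and 0.27 for PABPN RIP over input (all genes tested 0.07). Calls required an adjusted p of at most 0.01 in limma-voom over the 7260 genes tested and a log2 difference beyond 0.5. Among all genes tested, 32.0% were depleted and 37.6% were enriched with PABPC, and 20.0% were enriched and 9.27% depleted with PABPN. The corresponding shares of the 244 were 56.1% and 20.9% with PABPC, and 27.5% and 1.64% with PABPN. Among all lncRNAs tested, which include the 244, they were 57.6% and 18.7% with PABPC, and 25.9% and 3.30% with PABPN. The shares of the 244 with PABPC were thus close to those of lncRNAs in general. Without the 3 libraries that stood apart the counts were 147 depleted and 58 enriched with PABPC, and 79 enriched and 7 depleted with PABPN, while the shares of all genes tested were 34.3% and 39.5% with PABPC and 24.5% and 12.8% with PABPN. With these 3 libraries as a block in the fit of all 9, PABPC depleted 150 and enriched 54, and PABPN enriched 84 and depleted 4. The shares of all genes tested were then 34.3% and 40.1% with PABPC, and 25.1% and 12.2% with PABPN. Leaving out input b or input c alone gave 49 enriched with PABPN in both cases, with 15.9% of all genes tested enriched in each. Log2 differences with PABPC were spread more widely over the lncRNAs (SD 1.56) than those with PABPN (SD 0.55). Both comparisons use the same 3 input libraries. Because the limit of 100 acted on means that include the RIP libraries, the counts were repeated with a limit on input reads. Of the genes tested, 278 AS-named lncRNAs had a mean of more than 100 normalised reads in input. Of these, 165 were depleted and 47 enriched with PABPC, and 70 were enriched and 4 depleted with PABPN. Genes tested have recovered reads and deposited means above 50 in both tables, so the RIP libraries still had a part in this choice.

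When the RIPs were compared directly, 170 of 244 antisense lncRNAs (69.7%) were higher with PABPN and 26 (10.7%) were higher with PABPC, and 48 were not called. Among the 7260 genes as a whole, PABPN RIP was higher for 40.3% and PABPC RIP for 31.4%. For all lncRNAs tested these shares were 70.9% and 8.96%. The median antisense lncRNA was 2.54-fold higher in PABPN RIP (log2 difference 1.34, against 0.21 over all genes tested). Of the 170, 37 were also enriched over input with PABPN, and the other 133 were not. The share of all genes tested with both calls was not counted. In 182 lncRNAs every PABPN RIP library lay above every PABPC RIP library and in 33 every one lay below, against 46.7% and 36.7% of all genes tested. Scaling by the upper quartile moved the median over all genes tested from 0.21 to 0.47, and gave 185 lncRNAs higher with PABPN and 20 with PABPC. The shares of all genes tested were then 46.9% and 26.1%.

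**Figure D1:**
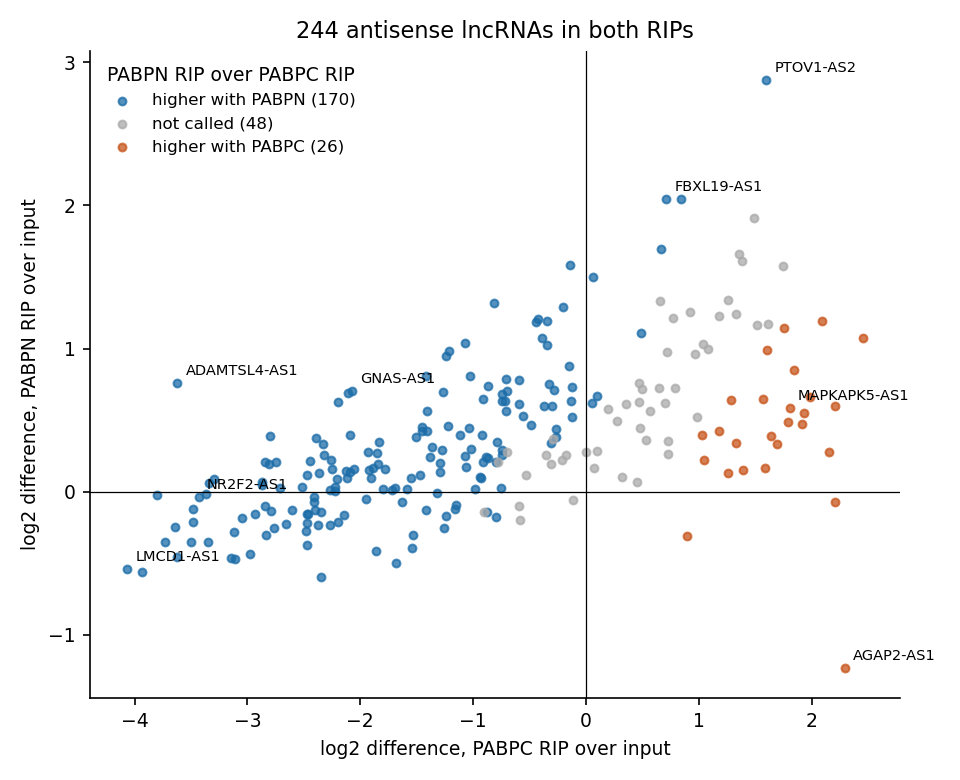
Each point is 1 of the 244 antisense lncRNAs with recovered reads, with its log2 difference of PABPC RIP over input (x axis) and of PABPN RIP over input (y axis). Colours give the direct comparison of the RIPs, with 170 higher with PABPN, 26 higher with PABPC and 48 not called. Most points lie left of 0 on the PABPC axis and within about 1 of 0 on the PABPN axis, and AGAP2-AS1 lies alone at the lower right.

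The calls of the 2 RIPs fell into a few patterns. The shares of all genes tested with each pair of calls were not counted, so no pattern can be called particular to antisense lncRNAs. The most frequent was depletion with PABPC without a call with PABPN, in 121 lncRNAs. Enrichment with both proteins was called in 32, enrichment with PABPN alone in 22 and with PABPC alone in 18. In 34 neither RIP was called, and 3 (LMCD1-AS1, PGR-AS1 and SDCBP2-AS1) were depleted with both. In 13 lncRNAs PABPN RIP was enriched and PABPC RIP depleted, and AGAP2-AS1 was the only lncRNA with the opposite pair of calls.

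AGAP2-AS1, a transcript inside the body of AGAP2 (a gene for a GTPase-activating protein) at chr12:57726271-57728356, had the largest difference in favour of PABPC. Its normalised reads were 147, 168 and 185 in the input libraries, 95.5, 73.6 and 47.6 in PABPN RIP, and 725, 884 and 839 in PABPC RIP. No PABPN RIP library reached the lowest input, and no PABPC RIP library came near the highest. PABPN RIP was thus 2.35-fold below input (log2 difference -1.23, SE 0.23, adjusted p = 0.00144), PABPC RIP 4.90-fold above it (log2 difference 2.29, SE 0.18, adjusted p = 4.67e-07) and the difference between the RIPs was 11.5-fold. AGAP2 itself had a log2 difference between the RIPs of 0.16 (SE 0.19, adjusted p = 0.436).

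The other lncRNAs with the strongest preference for PABPC spanned 0.886 to 6.42 kb of the genome. PITPNA-AS1, which overlaps the end of the gene for the phosphatidylinositol transfer protein alpha, had 149, 151 and 159 normalised reads in input, 143, 127 and 171 in PABPN RIP, and 726, 720 and 673 in PABPC RIP. The PABPN RIP libraries overlapped input, and PABPC RIP was 4.61-fold above it (log2 difference 2.20, SE 0.12, adjusted p = 4.81e-08). RNASEH1-AS1, which lies head to head with the gene for ribonuclease H1, had 107, 89.2 and 97.5 in input, 96.4, 125 and 141 in PABPN RIP, and 491, 413 and 403 in PABPC RIP. It showed the same arrangement, with PABPN RIP overlapping input and PABPC RIP 4.45-fold higher (adjusted p = 4.74e-07). The input mean of RNASEH1-AS1 was below 100, so it passed the limit of 100 only because the deposited means include the RIP libraries. Of the lncRNAs with recovered reads, 5 had an input mean of at most 100. Among these, the limit itself favoured lncRNAs that were high in the RIP libraries. URB1-AS1 (log2 difference of PABPN RIP over PABPC RIP -1.60), MAP3K4-AS1 (-1.44) and ZBTB11-AS1 (-1.43) completed the 6 lowest. URB1-AS1 lay just inside the limit, with a mean of 108.0 in the PABPN table, so the limit may have favoured it in the same way.

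Of the 6 lncRNAs with the highest PABPC RIP over input, PRKAG2-AS1 and ATP2A1-AS1 were enriched with both proteins. ATP2A1-AS1, a transcript of a single exon over the start of the gene for the muscle calcium pump SERCA1, had 126, 109 and 132 normalised reads in input, 227, 234 and 324 in PABPN RIP, and 719, 684 and 612 in PABPC RIP. The 3 groups did not overlap, in the order input, PABPN RIP, PABPC RIP. PABPC RIP was 5.50-fold over input, the highest of the 244, and PABPN RIP 2.11-fold over input (adjusted p = 1.62e-07 and 0.000545). ATP2A1 was depleted with PABPC by contrast, with a log2 difference of -0.61 (SE 0.14, adjusted p = 0.002).

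The 6 lncRNAs with the highest PABPN RIP over input spanned 2.32 to 10.1 kb. PTOV1-AS2, inside the body of PTOV1 at chr19:49856970-49859289, had 408, 481 and 495 normalised reads in input, 3545, 3670 and 2932 in PABPN RIP, and 1222, 1527 and 1447 in PABPC RIP. All groups were separate, and PABPN RIP was highest. Its PABPN RIP was 7.34-fold over input (log2 difference 2.88, SE 0.13, adjusted p = 1.55e-07), the highest of the 244, and its PABPC RIP 3.02-fold. PTOV1 was the only sense gene with more than 1 lncRNA in the set. The other, PTOV1-AS1, lies head to head with PTOV1 and had 214, 196 and 232 in input, 511, 538 and 436 in PABPN RIP, and 136, 154 and 199 in PABPC RIP. PABPN RIP of PTOV1-AS1 was above every input library (2.31-fold, adjusted p = 6.45e-05), while a single PABPC RIP library overlapped input (log2 difference -0.43, adjusted p = 0.0393, not called).

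SLC25A25-AS1 and FBXL19-AS1 followed PTOV1-AS2, with PABPN RIP 4.14-fold and 4.13-fold over input. SLC25A25-AS1 had 404, 574 and 621 normalised reads in input, 2419, 2364 and 1753 in PABPN RIP, and 746, 1101 and 1011 in PABPC RIP. The lowest library of each group was the one that stood apart on the first component. FBXL19-AS1, a single-exon transcript head to head with the gene for an F-box protein, had 449, 497 and 543 in input, 2302, 2266 and 1631 in PABPN RIP, and 750, 818 and 870 in PABPC RIP. Both were enriched with both proteins and higher with PABPN. ZNF674-AS1 (3.76-fold), FEZF1-AS1 (3.24-fold) and HERPUD2-AS1 (3.16-fold) were the next in PABPN RIP over input, and each was enriched with PABPC too.

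**Figure D2:**
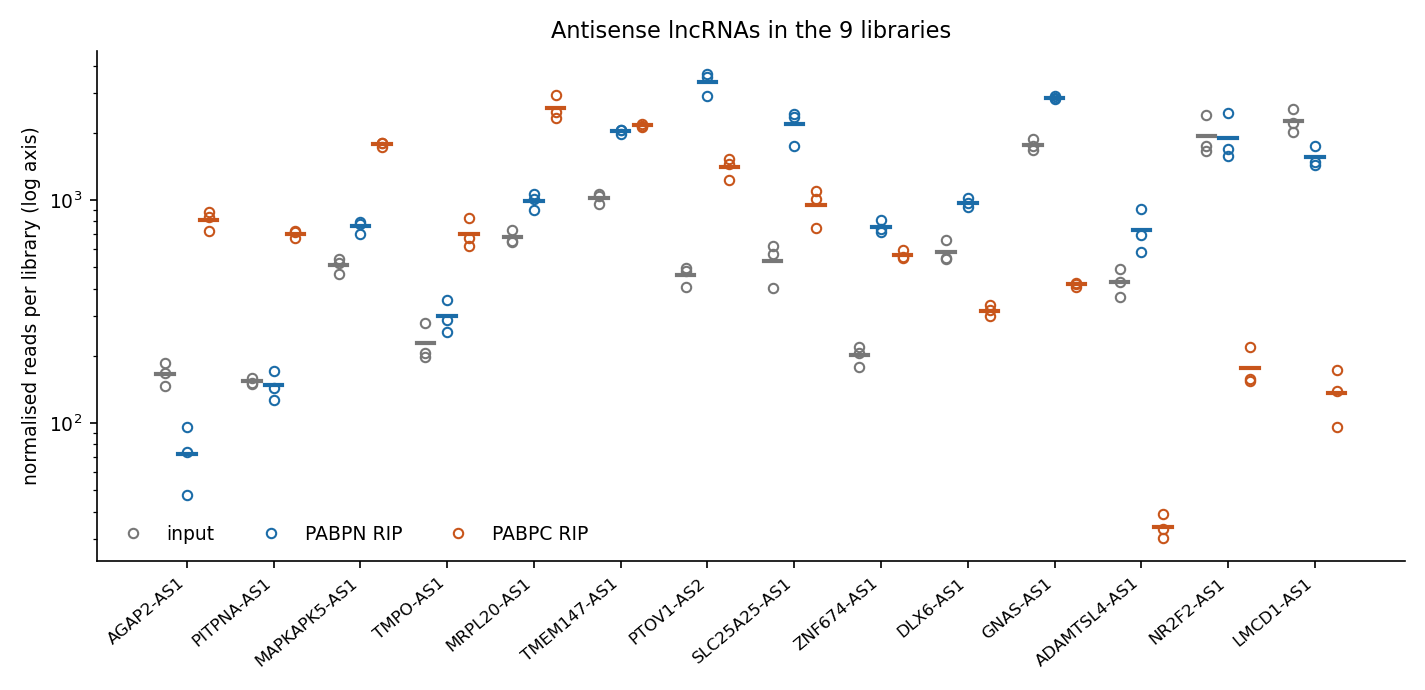
Normalised reads (log axis) of 14 antisense lncRNAs in each library, as circles, with the mean of the 3 libraries of a group as a bar, for input (grey), PABPN RIP (blue) and PABPC RIP (orange). From AGAP2-AS1 to MRPL20-AS1 the PABPC RIP libraries are the highest, from PTOV1-AS2 to ADAMTSL4-AS1 the PABPN RIP libraries are, and LMCD1-AS1 is below input in both RIPs.

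Depletion with PABPC was largest for lncRNAs that span long stretches of the genome. LMCD1-AS1, which crosses 661 kb and the start of LMCD1, had 2549, 2006 and 2217 normalised reads in input, 1475, 1429 and 1748 in PABPN RIP, and 173, 95.6 and 139 in PABPC RIP. Every RIP library was below every input library. PABPC RIP was 16.7-fold below input (log2 difference -4.06, SE 0.20, adjusted p = 2.75e-08) and PABPN RIP 1.46-fold below (adjusted p = 0.00577). PGR-AS1, head to head with the progesterone receptor gene, had 774, 867 and 860 in input, 541, 554 and 595 in PABPN RIP, and 45.9, 57.1 and 61.2 in PABPC RIP. It was depleted with both proteins too, with PABPC RIP 15.3-fold below input. SDCBP2-AS1, the third of these, had log2 differences of -0.59 with PABPN and -2.35 with PABPC.

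In 121 of the 137 lncRNAs depleted with PABPC, PABPN RIP was not called in either direction over input, and in 13 it was enriched. A missing call does not show that PABPN RIP equalled input. NR2F2-AS1, which spans 217 kb beside the gene for the nuclear receptor COUP-TFII, had 2392, 1665 and 1737 normalised reads in input, 1567, 1684 and 2444 in PABPN RIP, and 218, 154 and 157 in PABPC RIP. Input and PABPN RIP overlapped (log2 difference -0.04, SE 0.18, adjusted p = 0.878), and PABPC RIP was 10.8-fold below input (adjusted p = 5.00e-07). PKIA-AS1 (-3.80), LIX1-AS1 (-3.73), C1QTNF7-AS1 (-3.64) and ZFPM2-AS1 (-3.62) had log2 differences of PABPC RIP over input of the same order. Their PABPN RIP over input was -0.02, -0.35, -0.25 and -0.45, none of them called. F11-AS1, named after the gene for coagulation factor XI, was 10.5-fold higher with PABPN than with PABPC.

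ADAMTSL4-AS1 had the largest difference in favour of PABPN. This single-exon transcript of 1.91 kb lies at chr1:150560202-150562115, overlapping the end of ADAMTSL4, and had 368, 491 and 428 normalised reads in input, 907, 693 and 586 in PABPN RIP, and 33.4, 30.5 and 38.8 in PABPC RIP. The 3 groups did not overlap. PABPN RIP was 1.69-fold over input (adjusted p = 0.00309), PABPC RIP 12.3-fold below input (adjusted p = 6.68e-07) and the RIPs differed 20.8-fold (log2 difference 4.38, SE 0.29, adjusted p = 1.18e-07).

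ADAMTSL4-AS1 was 1 of the 13 lncRNAs enriched with PABPN and depleted with PABPC, and the other 12 were ADGRL1-AS1, DLX6-AS1, EMC1-AS1, GNAS-AS1, GRHL3-AS1, MMP25-AS1, PARD6G-AS1, RFX3-AS1, RNF139-AS1, SH3BP5-AS1, UBE2D3-AS1 and ZNF45-AS1. GNAS-AS1, an imprinted transcript at the locus of the stimulatory G protein alpha subunit, had 1678, 1747 and 1877 normalised reads in input, 2931, 2835 and 2852 in PABPN RIP, and 420, 425 and 408 in PABPC RIP. Replicates were close and the groups were apart, with PABPN RIP 1.63-fold above input and PABPC RIP 4.22-fold below it (adjusted p = 2.24e-05 and 1.07e-08). DLX6-AS1, which crosses the start of the homeobox gene DLX6 and is also known as Evf2, had 661, 541 and 547 in input, 967, 927 and 1019 in PABPN RIP, and 337, 300 and 320 in PABPC RIP. It had the same order, its log2 difference being 0.74 for PABPN (SE 0.10) and -0.86 for PABPC (SE 0.12).

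Several of the 244 antisense lncRNAs with many reads were enriched by both proteins. TMEM147-AS1, head to head with the gene for a membrane protein, had 962, 1036 and 1062 normalised reads in input, 1975, 2048 and 2066 in PABPN RIP, and 2132, 2191 and 2147 in PABPC RIP. Both RIPs were above every input library, 1.99-fold and 2.12-fold, and their own log2 difference was -0.09 (SE 0.07, adjusted p = 0.257). ARRDC1-AS1 had 935, 880 and 947 in input, 1887, 2136 and 2217 in PABPN RIP, and 2766, 2915 and 2765 in PABPC RIP, so that the PABPC RIP libraries were the highest. The log2 difference between its RIPs was -0.44 (SE 0.08, adjusted p = 0.000346), short of the 0.5 required for a call. MAGI2-AS3 was enriched 1.65-fold with PABPN and 1.41-fold with PABPC, and MRPL20-AS1, beside a gene for a mitochondrial ribosomal protein, 1.46-fold and 3.82-fold. CCNY-AS1 and FLG-AS1, also among the 8 with the most reads of the 244, had log2 differences of -2.45 and -1.54 with PABPC and were not called with PABPN (0.21 and -0.40).

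Antisense lncRNAs that are often studied fell on both sides. MAPKAPK5-AS1, head to head with the gene for a stress-activated protein kinase, had 464, 521 and 543 normalised reads in input, 799, 705 and 779 in PABPN RIP, and 1802, 1793 and 1724 in PABPC RIP. The groups did not overlap, and the log2 difference was 0.58 with PABPN and 1.81 with PABPC (adjusted p = 0.000548 and 2.88e-08). TMPO-AS1, head to head with the gene for the nuclear envelope protein thymopoietin, was enriched 3.11-fold with PABPC, and its log2 difference with PABPN was 0.39 (adjusted p = 0.108). ZEB1-AS1 was enriched with PABPN (1.96-fold) and had an adjusted p of 0.016 with PABPC. PAXIP1-AS2 was enriched 1.65-fold and 1.57-fold. NNT-AS1 had log2 differences of 0.44 and 0.48, below the cut-off, and SBF2-AS1 was depleted 1.83-fold with PABPC, its log2 difference with PABPN being 0.24 (adjusted p = 0.292).

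For the 36 lncRNAs without recovered reads the deposited means give a limit on the difference between the RIPs. Each table's mean is the average of input and 1 RIP, so once both tables were put on 1 scale the ratio of the means is the smallest ratio that the RIPs can have. Of the 36, 33 were higher in PABPN RIP, with a median limit of 1.60-fold. TTN-AS1, antisense to the titin gene, had a deposited mean of 12547 for PABPN and 6745 for PABPC, which gives at least 1.59-fold more in PABPN RIP. The limit was 1.95-fold for GABPB1-AS1, 1.34-fold for MCM3AP-AS1 and 2.13-fold for SLC16A1-AS1, the last named after its value was seen as the highest. The remaining 3 were higher in PABPC RIP, by at least 1.94-fold for FGD5-AS1, 1.20-fold for EPB41L4A-AS1, a host gene of a small nucleolar RNA, and 1.14-fold for VPS9D1-AS1. These limits carry no error, because the replicates of these lncRNAs were not separated.

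The genomic span of the gene went with the result in both RIPs, although the rule that chose the lncRNAs did not use it. The 244 genes spanned 0.886 kb (URB1-AS1) to 1064 kb, with a median of 36.4 kb. Of the 27 that span under 5 kb, 22 were enriched with PABPC and 3 depleted, and 18 were enriched with PABPN. Of the 59 that span 100 kb or more, 2 were enriched with PABPC and 50 depleted, and 4 were enriched with PABPN. Over all genes tested of any span, 37.6% were enriched and 32.0% depleted with PABPC, and 20.0% were enriched with PABPN. Calls of all genes tested were not counted by span class. The median log2 difference with PABPC fell from 1.61 in the shortest class through -0.23 (5 to 20 kb, 52 genes) and -1.002 (20 to 100 kb, 106 genes) to -2.34 in the longest. The corresponding medians with PABPN were 1.07, 0.57, 0.25 and -0.04.

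Spearman's rho between span and log2 difference was -0.64 for PABPC RIP over input and -0.57 for PABPN RIP over input across the 244 lncRNAs. Over all 7236 genes tested that the annotation holds, it was -0.65 and -0.25. Across the 1475 such lncRNAs it was -0.66 and -0.51. Genes are not independent replicates, and the points share the 9 libraries. The authors counted intronic and exonic reads of a gene together, and spliced and unspliced RNA cannot be told apart in these values.

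**Figure D3:**
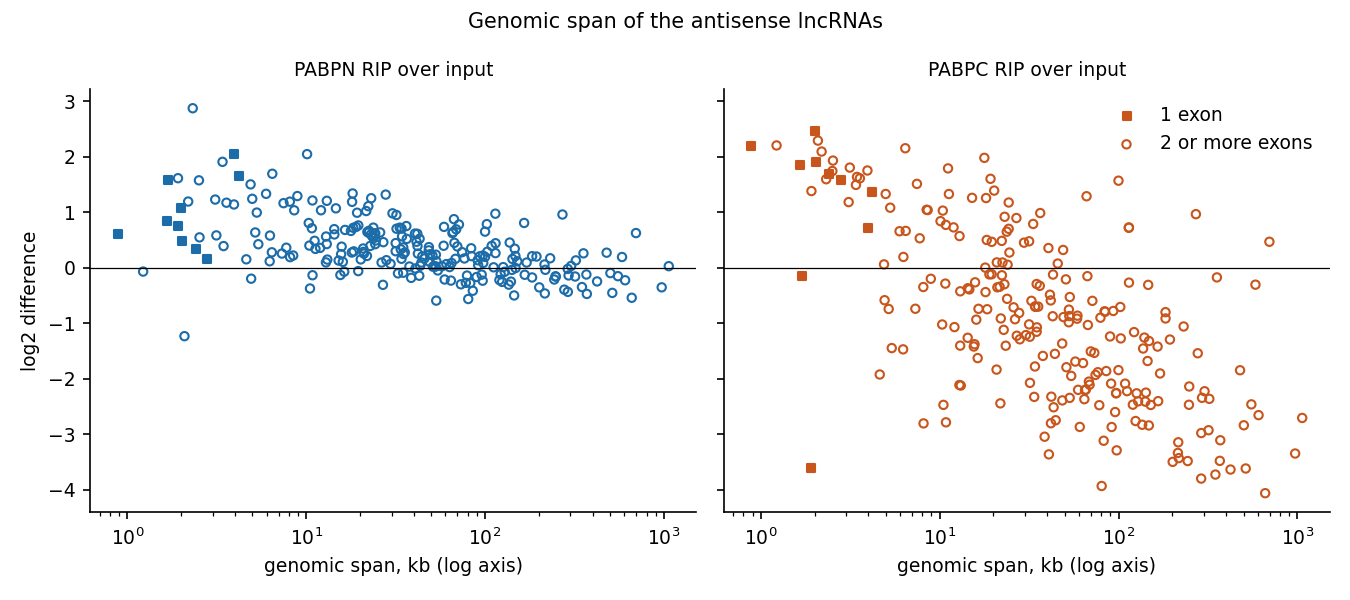
Genomic span in kb (log axis, x) against the log2 difference over input (y) for PABPN RIP (left, blue) and PABPC RIP (right, orange), with 1 point per antisense lncRNA, filled squares for genes with 1 annotated exon and open circles for the rest. The points slope downwards in both panels, over a wider range with PABPC, and the filled square far below the others on the right is ADAMTSL4-AS1.

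Exon number followed a similar order. The 10 lncRNAs with 1 annotated exon had a median log2 difference of 1.64 with PABPC, and 8 of them were enriched, 1 was depleted (ADAMTSL4-AS1) and 1 was not called. The median was -0.26 for 2 exons (42 genes), -0.79 for 3 exons (60 genes) and -1.37 for 4 or more exons (132 genes). With PABPN the medians were 0.80, 0.35, 0.39 and 0.17. The length of the spliced transcript had a rho of 0.02 with the PABPC differences and 0.06 with the PABPN differences.

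Position relative to the sense gene separated the lncRNAs less. The 80 that lie head to head, with start sites within 1000 bases, had a median log2 difference with PABPC of -0.54, with 24 enriched and 37 depleted. The 87 that overlap the start of the sense gene had a median of -1.02 (12 enriched, 52 depleted), the 54 that overlap its end -1.03 (10 and 34) and the 19 inside its body -1.23 (5 and 11). With PABPN the medians of these classes were 0.30, 0.24, 0.28 and 0.42. Over all genes tested, 37.6% were enriched and 32.0% depleted with PABPC.

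The poly(A) signal letters were searched on the transcript strand in the last 50 bases of the principal annotated transcript. AATAAA was found in 80 of the 244 antisense lncRNAs (32.8%), in 34.2% of all lncRNAs tested, in 65.6% of protein coding genes with the same limit on the means and in 55.9% of all genes tested. ATTAAA was found in 8.61%, 10.8%, 19.6% and 16.9%. The median log2 difference with PABPC was -0.44 for the 80 antisense lncRNAs with AATAAA, of which 25 were enriched and 37 depleted. It was -1.05 for the 148 with neither signal, of which 24 were enriched and 89 depleted, and -1.01 for the 16 with ATTAAA only. With PABPN the 3 medians were 0.39, 0.23 and 0.43. Calls of all genes tested were not counted by signal.

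Antisense lncRNAs were then set beside the genes their names are built on. Reads were recovered for both partners in 83 pairs, since the other sense genes mostly had higher means, and all 83 sense genes were protein coding. In the direct comparison of the RIPs the lncRNA had the higher log2 difference towards PABPN in 68 pairs and the lower in 15. The median was 1.56 for these lncRNAs and -0.14 for their sense genes. With PABPC, 50 of the 83 lncRNAs were depleted and 16 enriched, while 24 of the sense genes were depleted and 38 enriched. In 18 pairs the lncRNA was depleted and the sense gene enriched with PABPC, and in 4 pairs the reverse was called. With PABPN the medians were 0.27 and 0.01. Spearman's rho between partners was 0.24 with PABPC and 0.13 with PABPN, across pairs that share all libraries.

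Named pairs showed how far partners of 1 locus could differ. RNF139-AS1 was enriched with PABPN and depleted with PABPC (log2 differences 1.04 and -1.07), and RNF139, a ubiquitin ligase gene in head-to-head position, was enriched with PABPC (0.83) with a log2 difference of -0.46 for PABPN. DLX6, unlike DLX6-AS1, was enriched with both proteins (1.13 with PABPN and 1.00 with PABPC). ZNF674-AS1 was enriched with PABPC (1.49) and ZNF674 was depleted (-1.06), and PRKCQ-AS1 (0.99) and PRKCQ (-1.04), a protein kinase C gene, differed in the same way. LMCD1, the partner of LMCD1-AS1, was also depleted with PABPC (-1.25). The authors removed stretches shared by overlapping genes before counting, so the counted part of each partner is smaller than its full length.

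**Figure D4:**
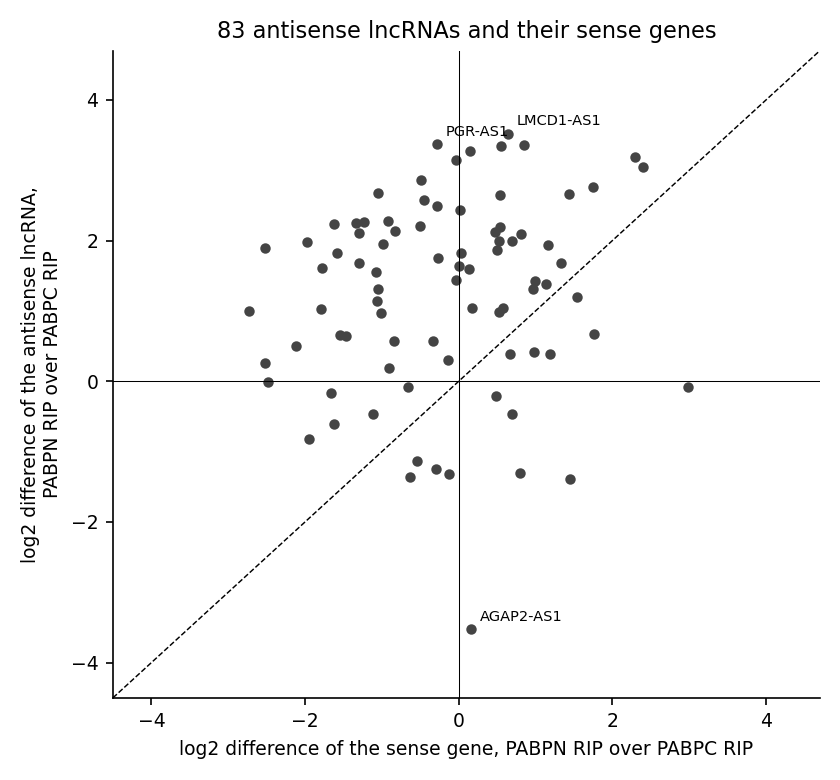
Log2 difference of PABPN RIP over PABPC RIP for 83 antisense lncRNAs (y axis) against that of the protein coding sense gene (x axis), with the line of equal values dashed. There are 68 points above the line and 15 below it, and AGAP2-AS1 is the lowest.

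The antisense lncRNAs were close to other named groups of lncRNAs with the same limit on the means in some measures and not in others, which is given as a description. With PABPN, 27.5% of the 244 antisense lncRNAs were enriched, against 41.4% of 58 lncRNAs named as divergent transcripts (DT), 9.43% of 106 named LINC and 30.4% of 513 other lncRNAs. With PABPC, 56.1% were depleted, against 48.3%, 74.5% and 61.8%. The median log2 difference of PABPN RIP over PABPC RIP was 1.34 for antisense lncRNAs, 1.28 for DT, 1.95 for LINC and 1.71 for other lncRNAs, while that of 4715 protein coding genes was -0.20. These 4715 were those tested of 11796 coding genes above the limit, whereas 244 of 280 antisense lncRNAs were tested. The groups thus differ in how much of each was kept. The middle 80% of antisense lncRNAs lay between -0.61 and 2.79, and that of protein coding genes between -1.98 and 1.55.

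**Figure D5:**
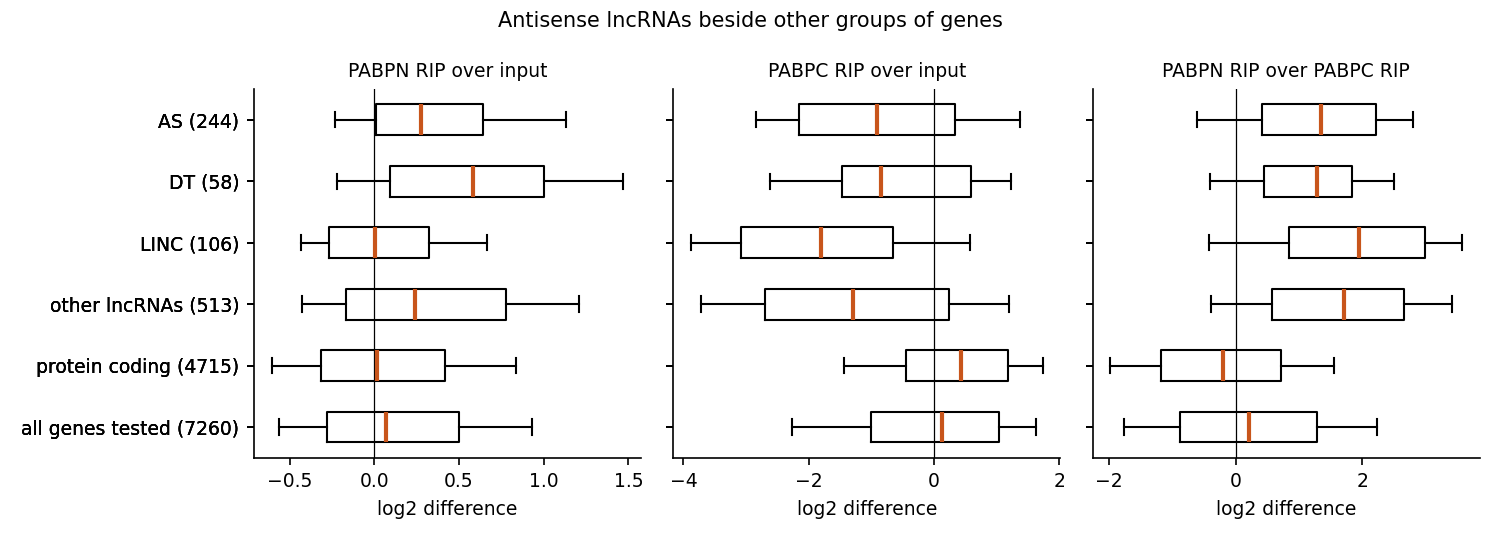
Log2 differences in the 3 comparisons for antisense lncRNAs (AS), other groups of lncRNAs, protein coding genes and all genes tested, with the number of genes in brackets. Boxes span the quartiles, the orange line is the median and whiskers reach the 10th and 90th percentiles. In the right panel the medians of all 4 lncRNA groups lie between 1.28 and 1.95, above those of protein coding genes and of all genes tested.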

How the data were processed

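The authors sequenced single-end reads of 75 nt, aligned them to hg38 with STAR and counted introns and exons of each gene together with featureCounts 2.0.2 on a GENCODE-derived annotation, with stretches shared by genes removed. The authors made 2 tables, 1 per RIP, with DESeq2. The deposited signal column (baseMean) is the mean over 6 libraries of counts divided by size factors. The other columns hold the authors' own fold change of RIP over input, its standard error, test statistic, p-value and adjusted p, and were not used.

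Whole reads per library were recovered from the digits of both means by lattice reduction for 11335 of 14137 genes tried. In a simulation of 1500 genes with means of 75 to 900, 1495 were accepted and 0 had a wrong read, and of 305 accepted with means of 1200 to 2000, 2 did. Genes with a PABPN table mean of 3000 or more were not tried, and not all below that were resolved. The genes tested (7260 of the 14581 with a mean above 50 in both tables) thus lack the most abundant ones. The tables list 123 repeated rows each, of which the first was kept.

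Reads were fitted with limma-voom (limma 3.58.1, R 4.3.3) as group means of all 9 libraries, scaled by the recovered size factors, with a two-sided moderated test and Benjamini-Hochberg adjustment. In a simulation of PABPN RIP over input with 7260 genes, 97% of genes changed 2-fold and 100% of those changed 4-fold were called, and 1 unchanged gene was. It changed 200 genes and drew each library independently with 1 fixed dispersion. The shift of the 3 libraries that stood apart was not part of it, so these rates need not hold for the real libraries. P-values measure the spread between 3 libraries per group.

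The members, gene lists and tests were chosen with earlier results of these data known. LncRNAs named in the text were the 6 highest and 6 lowest called in each comparison, the 8 with the most recovered reads, members on a list of often studied ones, those called in opposite directions, those at the limit of 100, their sense genes and those sharing a sense gene. Only 4 lncRNAs were depleted with PABPN, so that list of 6 was filled by PRKCQ-AS1 and ZNF213-AS1, the least enriched of those called. Alternatives covered the test, pseudocount, scaling, centring, libraries, filters and cut-offs.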

Additional observations from a re-analysis of the deposited data

Results flagged for a closer look

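In 14 antisense lncRNAs the 2 RIPs were called in opposite directions against the same input libraries, so that a difference between the RIPs follows from how they were singled out and is given here as a description. The share of all genes tested with opposite calls was not counted. In the limma fit the log2 difference of PABPN RIP over PABPC RIP was 4.38 for ADAMTSL4-AS1, 2.78 for GNAS-AS1, 2.23 for RFX3-AS1 and 2.11 for RNF139-AS1. It was 2.20 for PARD6G-AS1 and 2.19 for EMC1-AS1, in both of which each PABPN RIP library was above and each PABPC RIP library below every input library. For GRHL3-AS1 it was 1.96, for SH3BP5-AS1 1.83, for DLX6-AS1 1.60 and for MMP25-AS1 1.56. The values were 1.42 for UBE2D3-AS1, 1.40 for ADGRL1-AS1 and 1.35 for ZNF45-AS1. AGAP2-AS1, at -3.53, was the one in which PABPC RIP was above input and PABPN RIP below it.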

How the results depend on the processing

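Leaving out each library in turn gave 49 to 71 lncRNAs enriched and 2 to 8 depleted with PABPN, 48 to 53 enriched and 133 to 143 depleted with PABPC, and 159 to 173 higher with PABPN and 24 to 27 higher with PABPC. Of all genes tested, these fits called 15.9% to 20.7% enriched and 6.98% to 10.1% depleted with PABPN. With PABPC the shares were 35.9% to 38.4% enriched and 30.1% to 33.0% depleted. Between the RIPs, 37.7% to 40.7% were higher with PABPN and 30.3% to 31.6% higher with PABPC. The count of 8 came without PABPN RIP c and the count of 2 without PABPN RIP a or PABPN RIP b. The medians ranged from 0.19 to 0.33 with PABPN, from -1.003 to -0.83 with PABPC and from 1.27 to 1.42 between the RIPs. No paired analysis was possible because the recovered libraries carry no replicate number. With the 3 libraries that stood apart as a block (chosen after seeing the data), 84 were enriched with PABPN (25.1% of all genes tested), and the other counts and medians stayed within 1.5 times or the replicate spread.

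With a log2 cut-off of 1, PABPN enriched 30 and depleted 1, and 16 were higher with PABPC than with PABPN, against 8.02%, 2.62% and 22.3% of all genes tested. A limma test against a difference of 0.5 called 25 enriched and 0 depleted with PABPN, where 1 were below at an unadjusted p under 0.05, against 6.43% and 1.79% of all genes tested. PABPN depleted 7 after centring on the median of all genes, 7 after upper-quartile scaling, 7 without the 3 libraries that stood apart (chosen after seeing the data) and 2 among the 201 lncRNAs with means of at most 900 (also chosen then). In the same order, 11.7%, 11.4%, 12.8% and 9.27% of all genes tested were depleted with PABPN. Centring gave medians of -1.05 with PABPC and 1.13 between the RIPs. Upper-quartile scaling gave -1.23 and 1.60, and moved the medians of all genes tested to -0.18 with PABPC and 0.47 between the RIPs. The calls over all genes with PABPC then were 2084 enriched and 2838 depleted, against 2729 and 2322. Choosing lncRNAs among the genes tested by their input reads gave a median of -1.06 with PABPC. With means above 200, which leaves 154 lncRNAs, 43 were enriched with PABPN, 30 with PABPC, 113 were higher with PABPN and 10 with PABPC, and the PABPC median was -1.16. The medians over the genes then tested were 0.32 with PABPC and -0.07 between the RIPs, and 33.9% were higher with PABPN. Of those genes, 19.7% were enriched with PABPN, 43.3% were enriched with PABPC and 37.4% were higher with PABPC. With means above 10 the medians over the genes tested were -0.07 with PABPC and 0.46 between the RIPs.

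Of 2712 values of named lncRNAs, which leave out the cut-off of 1, the test against 0.5 and the other choices of members, 83 lost and 23 gained a call and 18 changed sign, none of them a called difference. For PABPN over input, leaving out a library gave -0.17 to 0.22 for F11-AS1, -0.23 to 0.13 for NR2F2-AS1, -0.26 to 0.17 for PKIA-AS1 and -0.18 to 0.0282 for PITPNA-AS1, with the lowest value without PABPN RIP c in each. F11-AS1 was also -0.0114 after centring and -0.0139 without the 3 libraries. Between the RIPs, leaving out a library gave -0.0755 to 0.15 for PAXIP1-AS2 and -0.15 to 0.0529 for NNT-AS1. PAXIP1-AS2 was -0.14 after centring and -0.0162 without the 3 libraries, and after upper-quartile scaling NNT-AS1 was 0.23 and TMEM147-AS1 0.17. The cause of these changes was not tested.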
